A study of Mus musculus with 48 samples.

Results

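The cytosolic ribosomal protein genes of the mouse were followed in hippocampal RNA. They were taken by symbol (Rps or Rpl with a number, a trailing a, l, x or 1 where present, plus Rpsa, Rplp0, Rplp1 and Rplp2) and by a mean of at least 1 CPM (counts scaled to a common library size) over the 48 libraries. Of 57126 gene identifiers, 87 matched by name and 81 passed the minimum. These 81 comprised 33 genes of the small subunit and 48 of the large subunit. Expression level was the only measured value in the choice, and no group entered it. The last genes inside the minimum were Rps10 (mean 1.04 CPM) and Rpl24 (1.21 CPM), and the first outside was Rpl6l (0.686 CPM). Rps12l1, Rpl10l, Rpl39l, Rpl3l and Rpl32l also lay below it.

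The animals were outbred CD-1 mice aged 2 months, and each library came from the hippocampus of 1 labelled animal. Dams were exposed in drinking water to 100 ppm Pb (lead), to 2 g/L Mn (manganese) or to both, starting 2 weeks before mating and ending with weaning at postnatal day 21, which made 8 weeks. Their offspring, 6 males and 6 females per exposure, were compared with 6 control males and 6 control females, which gave 8 groups. Exposure reached the offspring through the dam, and the labels do not give litters, so the p-values below measure the spread between animals that may share a mother. No batch is labelled. Libraries were stranded, selected for polyadenylated RNA, and held 6273586 to 27639841 counts.

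The cytosolic ribosome translates nearly all nuclear-encoded mRNA. Its small subunit reads the mRNA, its large subunit joins the amino acids, and each subunit is built in the nucleolus from ribosomal RNA and a single copy of most of these proteins. The genes are scattered over the chromosomes and are transcribed at high and balanced rates. Many of their mRNAs are short and begin with a terminal oligopyrimidine (TOP) tract, a C followed by an unbroken run of C and T, through which mTOR signalling and the protein LARP1 control their translation and stability. In neurons the same mRNAs are also found in dendrites and axons.

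Start sites from RefSeq (mouse build GRCm38.p6, a different build from the GRCm39 used for the counts) were searched for the TOP tract. Of the 81 genes, 60 were in the RefSeq promoter table, with 71 annotated starts. A C at the start followed by at least 4 more bases of C or T stood at 13 of the 71 starts (18.3%), against 2.51% of all 32851 starts in the table. By gene, 13 of the 60 (21.7%) held such a tract, against 3.01% of all genes in the table, so most members showed none. The window runs from 10 bases before the start to 20 bases from it on, 5′ to 3′ on the gene's strand. The windows below show 5 of the 13 genes with a tract, in capitals, and then 3 genes that the results turn on. In Rpl26 the capitals mark CCGGAAG, the core bound by ETS-family factors. The windows of Rps12 and Rpl4 hold no CCGGAAG, and no tract begins at their annotated starts. The Rps12 window does hold a run of C and T further downstream. It was not counted, because only a run beginning at the annotated start was.
Rpl15, chr14:18270967-18270996, minus strand: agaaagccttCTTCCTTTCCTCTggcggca
Rpl35, chr2:39005112-39005141, minus strand: ccgccctttcCTCTTTCTCTCgaaccaggc
Rps6, chr4:86857348-86857377, minus strand: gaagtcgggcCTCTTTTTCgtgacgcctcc
Rpl35a, chr16:33056472-33056501, plus strand: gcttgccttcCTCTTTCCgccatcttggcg
Rps10, chr17:27635225-27635254, minus strand: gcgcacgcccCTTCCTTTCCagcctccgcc
Rps12, chr10:23787190-23787219, minus strand: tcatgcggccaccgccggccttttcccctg
Rpl26, chr11:68901556-68901585, plus strand: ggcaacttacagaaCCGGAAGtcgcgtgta
Rpl4, chr9:64173377-64173406, plus strand: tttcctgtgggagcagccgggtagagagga

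Over the whole 300 bases (250 before the start and 50 from it on), CCGGAAG on either strand was found at 26 of the 71 starts (36.6%), against 8.86% of all starts. AAGATGG, the core of the YY1 site, was found on either strand at 12 of the 71 (16.9%), against 6.34% of all. A match is a run of letters and not a measured start or binding event. Members with and without a tract had overlapping values. The median log2 fold change of male Pb over control was 0.55 for the 13 genes with a tract (0.32 to 0.88) and 0.66 for the 47 without one (0.06 to 1.09).

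The family was unevenly abundant. Per kilobase of transcript, which allows genes to be compared, Rplp1 led with 1237 CPM per kb. It encodes an acidic protein of the P stalk, which recruits the elongation factors. Rps29 (911 CPM per kb), Rps15 (801), Rps21 (681) and Rps24 (665), all of the small subunit, followed, and the median gene had 266 CPM per kb. The lowest levels per kb belonged to Rps10 (1.53 CPM per kb), Rpl24 (1.79), Rps4l (7.59), Rpl29 (27.0) and Rpl7l1 (27.8). Rps4l is a copy related to the X-linked Rps4x, and Rpl7l1 is related to Rpl7. Rps10 and Rpl24 encode core proteins of the small and the large subunit. Many genes of this family have near-identical pseudogene copies, and the labels do not state how reads matching several places were counted, so the level of any single member, and above all of Rps10 and Rpl24, is uncertain.

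The transcripts were short. The median of the 81 transcript lengths was 712 nt (range 368 nt for Rpl38 to 3706 nt for Rps20), against 2288 nt for the 14263 other protein-coding genes tested. The libraries of this series differed in how strongly expression depended on transcript length. The length trend of a library is the slope of log2 CPM, centred for each gene over the 48 libraries, on log2 transcript length, over 11016 genes outside the family. A negative trend means that short transcripts were relatively high in that library.

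Together the 81 genes took between 1.10% and 4.28% of a library's counts. The extremes at the top were 2 animals, male Pb 6 with 3.99% and female Pb 2 with 4.28%. The next highest were male Pb 4 (2.23%), male Pb 1 (2.22%) and female control 1 (2.14%). In male controls the share ran from 1.39% to 1.97% with a median of 1.48%, and in male Pb from 1.45% to 3.99% with a median of 2.15%. So 4 of the 6 male Pb animals (1, 3, 4 and 6) stood above the highest male control and 2 (animals 2 and 5) stood inside the control range. Female controls ran from 1.28% to 2.14% (median 1.49%) and female Pb from 1.10% to 4.28% (median 1.42%), where 5 of the 6 Pb animals lay at or below 1.88%. The share was 1.65% ± 0.21 in male Mn, 1.60% ± 0.251 in male Pb+Mn, 1.59% ± 0.258 in female Mn and 1.5% ± 0.0355 in female Pb+Mn (SD, n = 6). Female Pb+Mn was the most even of the 8 groups. In bulk tissue, a different mix of cells and a different amount of RNA per cell cannot be told apart.

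**Figure D1:**
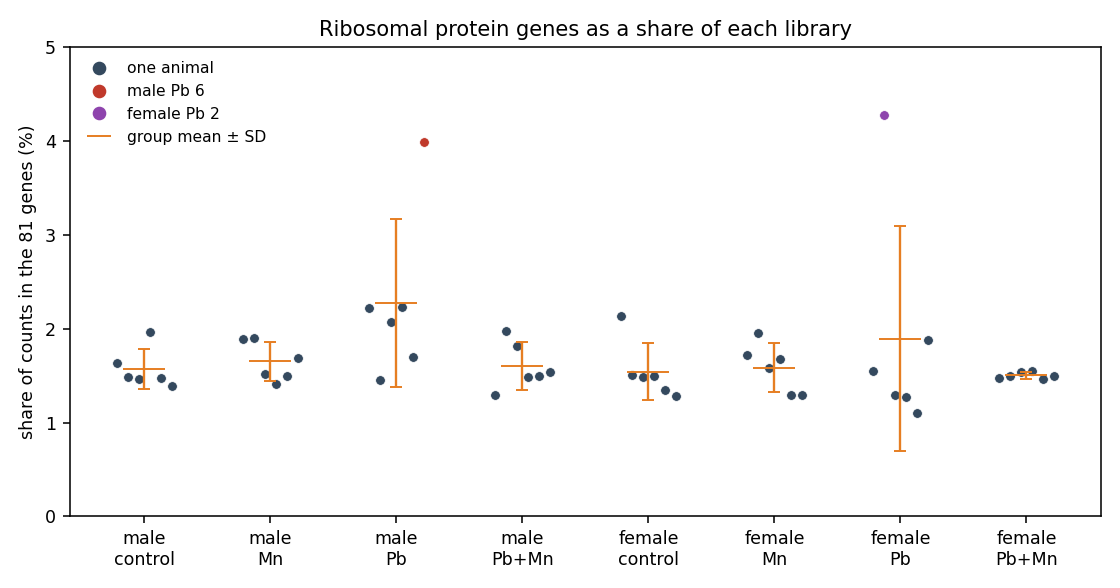
Share of each library's counts (%, vertical axis) in the 81 ribosomal protein genes, by group, with 1 point per animal and the group mean ± SD (n = 6). Male Pb 6 (3.99%) and female Pb 2 (4.28%) stand apart from the other 46 animals, none of which exceeds 2.23%.

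The family moved as a block between animals. After the group means were subtracted, the correlation of a gene with the mean of the others over 48 libraries had a median of 0.96, and 72 of the 81 genes reached 0.8. These correlations are a description, since the libraries also share depth and composition. The 48 include male Pb 6 and female Pb 2, which lie far from their group means and can raise r. Values without these 2 animals, and the share of all genes reaching 0.8, are not given here. In male Pb 6 and in female Pb 2, 81 of 81 genes lay above their own mean over all libraries, when 49.9% and 49.7% of all tested genes did. Male Pb 1 had 79 of 81 above, male Pb 3 had 79, male Pb 4 had 78, male Pb 5 had 58 and male Pb 2 had 4. Female Pb 3, 4 and 5 had 4, 6 and 1 above, and female control 6 had 0.

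**Figure D2:**
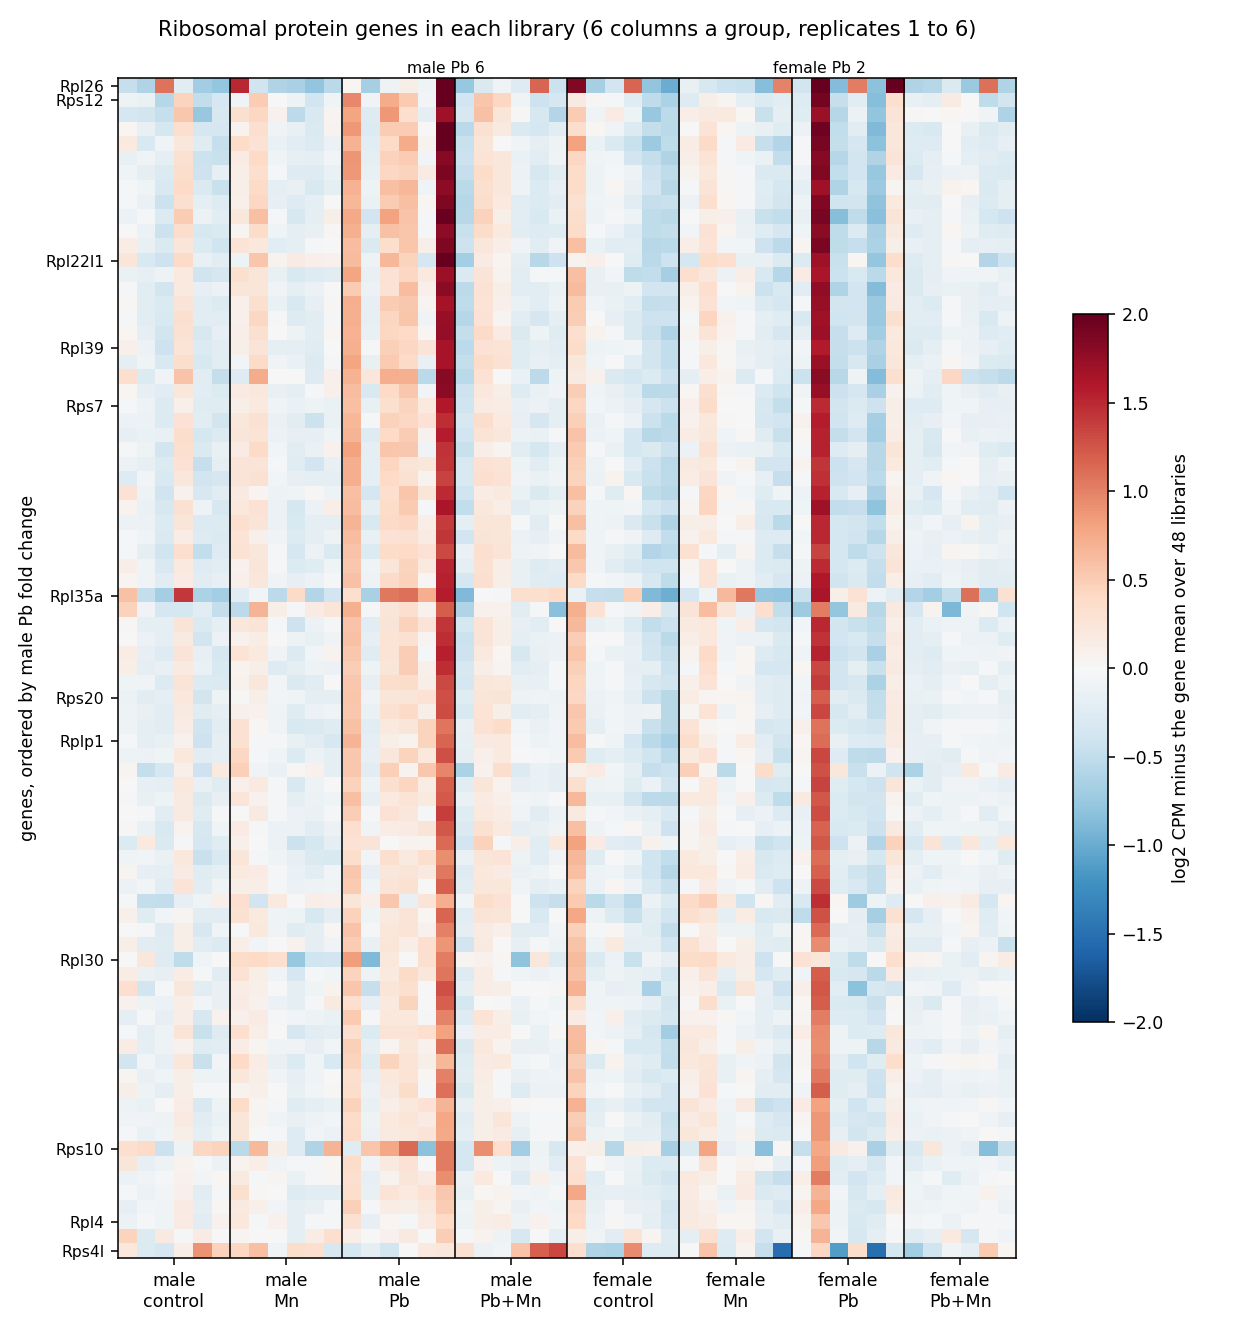
Log2 CPM of each gene minus its mean over 48 libraries (colour), with genes in rows ordered by male Pb fold change (12 of them labelled) and libraries in columns, 6 per group. Whole columns are red in male Pb 6 and female Pb 2, where 81 of the genes lay above their own mean. Rpl26, Rpl35a, Rpl30, Rps10 and Rps4l depart from the rest of the family in other columns.

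The question the design puts to this family is whether developmental exposure changed its expression. By edgeR's quasi-likelihood test, with p-values adjusted (Benjamini-Hochberg) across all 16360 tested genes, 0 of the 81 members passed an adjusted p of 0.05 in any of the 6 exposures against control, and 0.0% of all genes did. At an unadjusted p under 0.05, the male Pb comparison held 74 members higher and 0 lower, when 8.28% of all genes were higher at that level. In male Mn (2.25% of genes in either direction), male Pb+Mn (2.93%), female Mn (2.62%), female Pb (2.18%) and female Pb+Mn (1.64%) the count of members at that level was 0. DESeq2 and limma voom also called 0 members in these 6 comparisons. The median log2 fold change of the members was 0.62 in male Pb and 0.32 in female Pb, against 0.00 and 0.01 over all genes. It was 0.08 in male Mn, 0.04 in male Pb+Mn, 0.05 in female Mn and -0.06 in female Pb+Mn. The 3 exposures of each sex share their control animals.

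In male Pb against male control, 80 of 81 members were higher, when 50.8% of all genes were. They comprised 32 of 33 in the small subunit (median log2 fold change 0.64) and 48 of 48 in the large subunit (0.58). None of the 81 genes had non-overlapping ranges in the 2 groups, as 0.202% of all tested genes had. For 14 members all 6 male Pb animals lay above the control mean, and for 74 at least 5 did. The share of all genes with such counts is not given here. The members move together, so these are not separate observations. The gene of smallest p was Rps12 (ENSMUSG00000061983), a protein of the small subunit's head. Its levels in male controls were 158 CPM at the lowest, 201 at the median and 320 at the highest, and in male Pb 224, 369 and 957 CPM. Male Pb 6 was far above the rest, 3 more Pb animals were above the highest control, and the other two overlapped the controls. The log2 fold change was 1.04 ± 0.31 (SE, adjusted p = 0.34 by edgeR).

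Rps7, whose product binds the p53 regulator Mdm2, had a median of 194 CPM in male controls (182 to 234) and 284 CPM in male Pb (197 to 663), a log2 fold change of 0.74 ± 0.22. Rps20 is the longest member and went from a median of 151 CPM (130 to 195) to 202 CPM (159 to 408), a log2 fold change of 0.61 ± 0.19. Rpl39, which lines the exit tunnel of the large subunit, went from 71.4 CPM (60.2 to 97.3) to 109 CPM (78.4 to 252), a log2 fold change of 0.78 ± 0.24. In each of these 3 genes male Pb 6 was the highest animal, male Pb 2 the lowest of the Pb animals, and the groups overlapped. All 3 had an adjusted p of 0.34 by edgeR.

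The fold change had exceptions at both ends. The largest value belonged to Rpl26 (1.09 ± 0.60, adjusted p = 0.44 by edgeR) and rested on a single animal, as described below. The lowest belonged to Rps4l (-0.30 ± 0.30, adjusted p = 0.65 by edgeR), the only member below 0. Rpl4 (ENSMUSG00000032399), a large-subunit protein reaching into the exit tunnel, was among the steadiest, with 469.8 to 611 CPM in male controls (median 524) and 488 to 719 CPM in male Pb (median 589). Its log2 fold change was 0.16 ± 0.11 (adjusted p = 0.51 by edgeR). For Rpl7l1 it was 0.06 ± 0.13, with 29.7 to 48.9 CPM in controls and 35.8 to 50.4 CPM in male Pb.

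Short lists within the family gave similar values. The P stalk genes Rplp0, Rplp1 and Rplp2 had log2 fold changes of 0.44 ± 0.17, 0.59 ± 0.19 and 0.53 ± 0.19 in male Pb. Rplp1 ran from 449.5 to 635 CPM in male controls (median 531) and from 523 to 1337 CPM in male Pb (median 731), again with overlap. Rpl5 and Rpl11 form a particle with a small ribosomal RNA and bind Mdm2 when ribosome assembly fails, and they had 0.76 ± 0.27 and 0.68 ± 0.26. Of 12 listed genes mutated in Diamond-Blackfan anaemia, an inherited failure of red cell production, 12 were higher (median 0.67). Of these, 9 had an unadjusted p under 0.05, a level that 74 of the 81 members and 8.28% of all genes reached upward. Of the 13 tested genes in paralog pairs, 12 were higher (median 0.44). Per kb, Rpl22l1 stood at 101% to 167% of Rpl22 in male controls and at 99.4% to 250% in male Pb, with male Pb 6 highest.

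Female Pb showed how far 1 animal carries the mean. Rps12 ran from 131 to 890 CPM (median 200), against 152 to 269 CPM in female controls (median 215). Female Pb 2 was at 890 CPM, and the other 5 had a mean of 199 CPM ± 59.8 (SD, n = 5). The log2 fold change was 0.58 ± 0.30 (adjusted p = 1.0 by edgeR) with female Pb 2 and -0.08 ± 0.20 without it and male Pb 6. Rps27, the member of smallest p in this comparison, had 0.54 ± 0.28 (adjusted p = 1.0 by edgeR), and Rps14 and Rpl9 had 0.49 ± 0.26 and 0.56 ± 0.30. The highest fold change was that of Rpl26 (1.04 ± 0.60) and the lowest that of Rps4l (-0.28 ± 0.31).

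**Figure D3:**
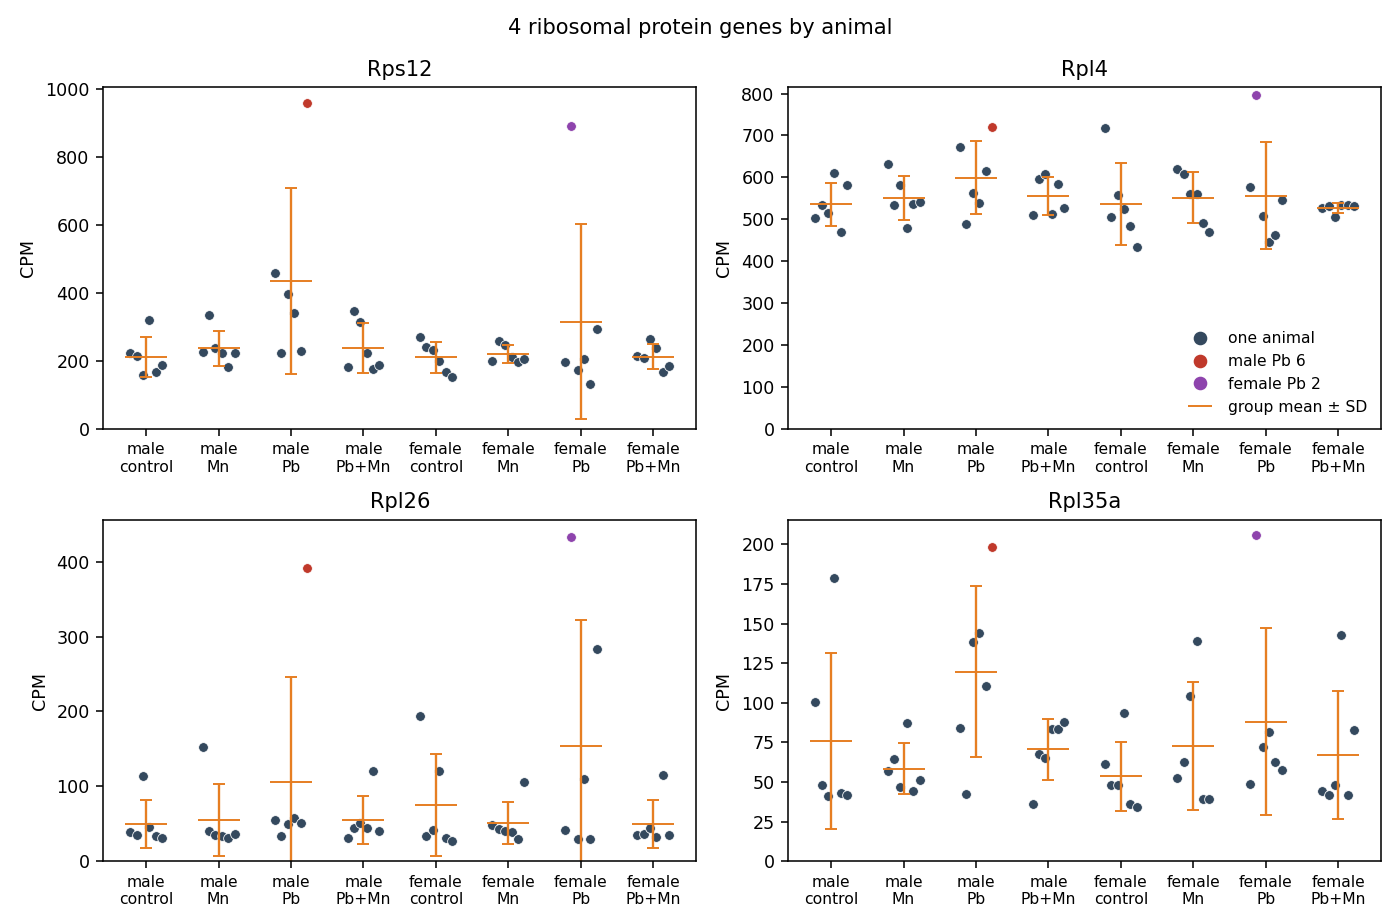
CPM of Rps12, Rpl4, Rpl26 and Rpl35a by group, with 1 point per animal and the group mean ± SD (n = 6, lower bars end at 0). Rps12 follows the family, Rpl4 varies least, and Rpl26 falls into a high and a low set of animals that cuts across the groups.

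Left out of the fit in turn, the 2 animals gave different outcomes in the 2 sexes. Without male Pb 6, the male Pb median was 0.37, with 78 of 81 members higher and 18 at an unadjusted p under 0.05 (5.13% of all genes in either direction). Without both animals the male median stayed 0.37, and 62 members reached that level (7.03% of genes), with smaller standard errors (0.20 for Rps12, against 0.31 with all libraries). Without female Pb 2, the female median was -0.11 and 8 of 81 members were positive. So the male Pb excess was smaller without its outlying animal, and the sign of the female Pb median changed without female Pb 2. That fit kept female control 1, the highest female control (member mean log2 CPM 7.67, against a group median of 7.06). No fit left out both female Pb 2 and female control 1, so the negative sign may rest on that control. Rps12 in male Pb kept 0.65 ± 0.20 (adjusted p = 0.70 by edgeR) without the 2 animals, Rps7 0.43 ± 0.13 and Rpl39 0.49 ± 0.15. Rpl26 went to -0.01 ± 0.53.

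The sex difference in the Pb effect depended on the same 2 animals. The median difference in log2 fold change (female minus male) was -0.31 over the members, with 0 passing the adjusted test and 1 of 81 lower at an unadjusted p under 0.05 (2.07% of genes in either direction). It was -0.06 with 0 members without male Pb 6 (1.73%), -0.74 with 73 members without female Pb 2 (13.1%) and -0.46 with 55 members without both (5.94%). In none of these did a member pass the adjusted test. The sex differences for Mn (0.954% of genes) and Pb+Mn (0.789%) held 0 members at an unadjusted p under 0.05. Between female and male controls, 0 members were called, as 0.0428% of all genes were, and 0 had an unadjusted p under 0.05 (1.31% of genes), with a median of 0.00.

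Animals given both metals were also compared with those given Pb. In male Pb+Mn against male Pb, 80 of 81 members were lower, with a median log2 fold change of -0.53 against -0.01 over all genes. At an unadjusted p under 0.05, 68 members were lower, when 15.0% of all genes were, and 1 was higher. With edgeR's adjusted test, 0 members passed and the smallest adjusted p was 0.092. This comparison uses the same 6 male Pb animals as the one with controls, so the 2 are not separate evidence. Rpl22l1 had the smallest p. It ran from 28.0 to 143 CPM in male Pb (median 51.9) and from 22.3 to 40.1 CPM in male Pb+Mn (median 29.2), with a log2 fold change of -1.01 ± 0.29 (adjusted p = 0.092 by edgeR). Male Pb 6 was highest and the groups overlapped, as for 81 of 81 members, while 0.972% of all genes did not overlap.

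Rpl15 (-0.48 ± 0.14) and Rpl39 (-0.76 ± 0.24) were also among the members of small p, each with an adjusted p of 0.092 by edgeR. The exception upward was Rps4l, at 4.70 to 7.12 CPM in male Pb and 5.60 to 15.4 CPM in male Pb+Mn (log2 fold change 0.70 ± 0.29). The call turned on single libraries of the male Pb group. DESeq2 called 4 members (2.81% of the genes it adjusted), and edgeR called 49 without male Pb 2 (8.97%) and 37 without male Pb 5 (9.37%). Those 2 animals held the lowest member levels of their group. Without male Pb 6 and female Pb 2, 50 members had an unadjusted p under 0.05 (12.7% of genes) and the median was -0.31.

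The remaining contrasts held no called member. Female Pb+Mn against Pb had a median of -0.35, and 7 members were lower at an unadjusted p under 0.05 (1.76% of genes were), Rpl26 with the smallest p (-1.62 ± 0.61, adjusted p = 0.95 by edgeR). Without female Pb 2 that median was 0.05, and 65 of 81 members were positive. Male Pb+Mn against Mn (4.03% of genes) and female Pb+Mn against Mn (2.55%) held 0 members at that level, with medians of -0.03 and -0.10. The Pb by Mn interaction in males had a median of -0.60, and 47 members were lower at an unadjusted p under 0.05 (8.18% of genes). In females it was -0.41 with 0 members (3.09% of genes in either direction).

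The family's level followed the length trend of the other genes from library to library. Over the 48 libraries, the mean log2 CPM of the members and the length trend had a Pearson r of -0.89 and a Spearman rho of -0.78. Over the 46 libraries without male Pb 6 and female Pb 2, r was -0.76 and rho -0.75. With group means subtracted, r was -0.89 over 48 libraries and -0.77 over 46. These are descriptions over libraries that share the scaling of their counts. Male Pb 6 (-0.284) and female Pb 2 (-0.267) had the steepest trends, and female control 1 (-0.179) and male Pb 4 (-0.121) came next.

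The match was not complete. Male Pb 1 and male Pb 3 had nearly flat trends (-0.015 and -0.032), yet their members lay 0.54 and 0.33 above the mean over libraries, and 0.48 and 0.21 above the least-squares line. Male Pb 6 and female Pb 2 lay 0.22 and 0.31 above that line. The other male Pb animals lay on or near it, within 0.02 for animals 2 and 5 and with a residual of -0.11 for animal 4. Departures were also seen in other groups, among them residuals of -0.37 in male control 5, -0.34 in male control 1, -0.22 in female control 1 and 0.28 in male Pb+Mn 3. The mean trend was 0.000106 ± 0.0574 in male controls and -0.0721 ± 0.116 in male Pb (SD, n = 6). They differed by -0.072 (exact permutation test, two-sided, p = 0.199, adjusted over 3 comparisons 0.299), and the groups overlapped. Female Pb differed from its controls by -0.006 (exact permutation p = 0.918, adjusted 0.918). Male Pb+Mn differed from male Pb by 0.108 (exact permutation p = 0.0216, adjusted 0.0649). Without male Pb 6, the difference of male Pb from control was -0.03 and that of male Pb+Mn from male Pb was 0.066. Without female Pb 2, that of female Pb from control changed sign to 0.046.

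**Figure D4:**
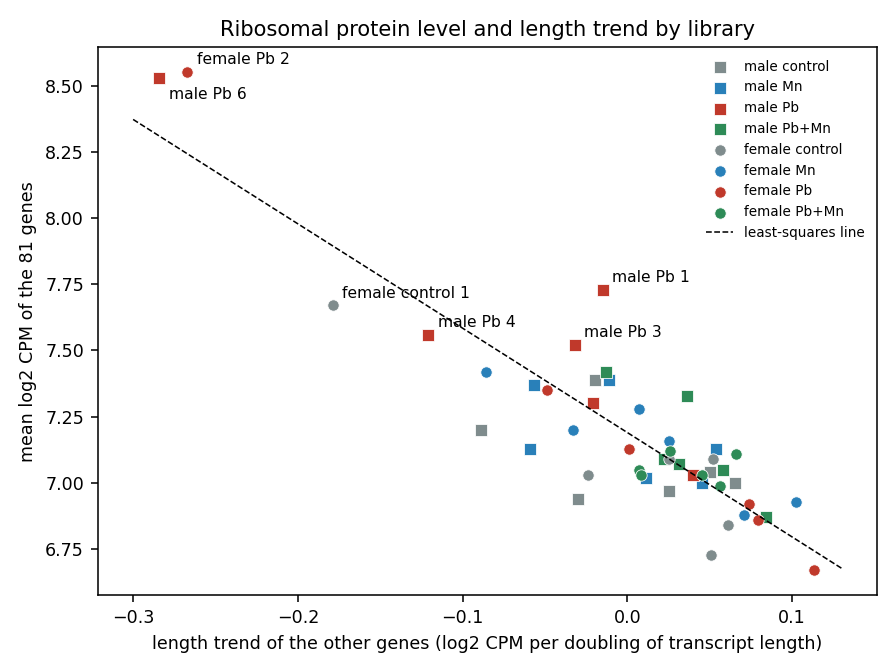
Mean log2 CPM of the 81 genes (vertical axis) against the length trend of the genes outside the family (horizontal axis), with 1 point per library and the least-squares line. Male Pb 6 and female Pb 2 lie at the far left and top, while male Pb 1 and male Pb 3 lie above the line near a trend of 0.

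Members were also set against other genes of their length class in each library. The values were medians of log2 CPM, centred for each gene over the 48 libraries. The member median was above that of the other genes in 16 libraries and below it in 32 for transcripts up to 750 nt. It was above in 15 and below in 32 from 750 to 1500 nt, and above in 17 and below in 31 over 1500 nt. Centred values do not compare levels between genes. Each gene's mean includes male Pb 6 and female Pb 2, where members were highest. That lowers the members' centred values in the other libraries. Among transcripts up to 750 nt, the 46 members had a median centred log2 CPM of 1.48 in male Pb 6, when the 891 other protein-coding genes had 0.29. In female Pb 2 the 2 values were 1.54 and 0.25. At the other end, they were -0.50 and -0.07 in female control 6 and -0.55 and -0.12 in female Pb 5. In female control 1 they were 0.52 and 0.21, in male Pb 1 they were 0.61 and 0.04, and in male Pb 3 they were 0.34 and 0.05. From 750 to 1500 nt, the 31 members had 1.19 in male Pb 6 and 1.32 in female Pb 2, against 0.34 and 0.30 in 2274 other genes. The 4 members over 1500 nt (Rpl4, Rpsa, Rpl22 and Rps20) had medians of 1.07 and 1.12, when the 7851 other genes of that class lay at -0.21 and -0.23.

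Within the family, shorter members had somewhat higher fold changes in male Pb (Pearson r -0.33 and Spearman rho -0.36 over 81 genes, which are not independent). With the length trend as a covariate in the edgeR fit, the male Pb median was 0.26 and 49 members were higher at an unadjusted p under 0.05 (3.8% of genes), with 0 called. Rps12 then had 0.55 ± 0.21 and Rps7 0.34 ± 0.11. The same covariate moved the medians of the other exposures against control. In male Pb+Mn the median was 0.18 with 16 members higher at that level (1.65% of genes), against 0.04 and 0 members without the covariate. In female Pb+Mn it changed sign to 0.12, with 77 of 81 members positive and 2 at that level (1.49%). It was 0.15 with 8 members in female Pb (2.01%), 0.13 with 4 in female Mn (2.29%) and 0.06 with 0 in male Mn (1.64%), and 0 members were called in these 5. The male Pb+Mn against Pb median went from -0.53 to -0.07 under the covariate. At an unadjusted p under 0.05, 2 members were then lower, against 68 without the covariate. The count higher was 1, and 1016 of 16360 genes reached that level in either direction. In the male Pb by Mn interaction, 2 members were lower, against 47 without the covariate. There too 1 was higher, and 954 of all genes reached that level in either direction.

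**Figure D5:**
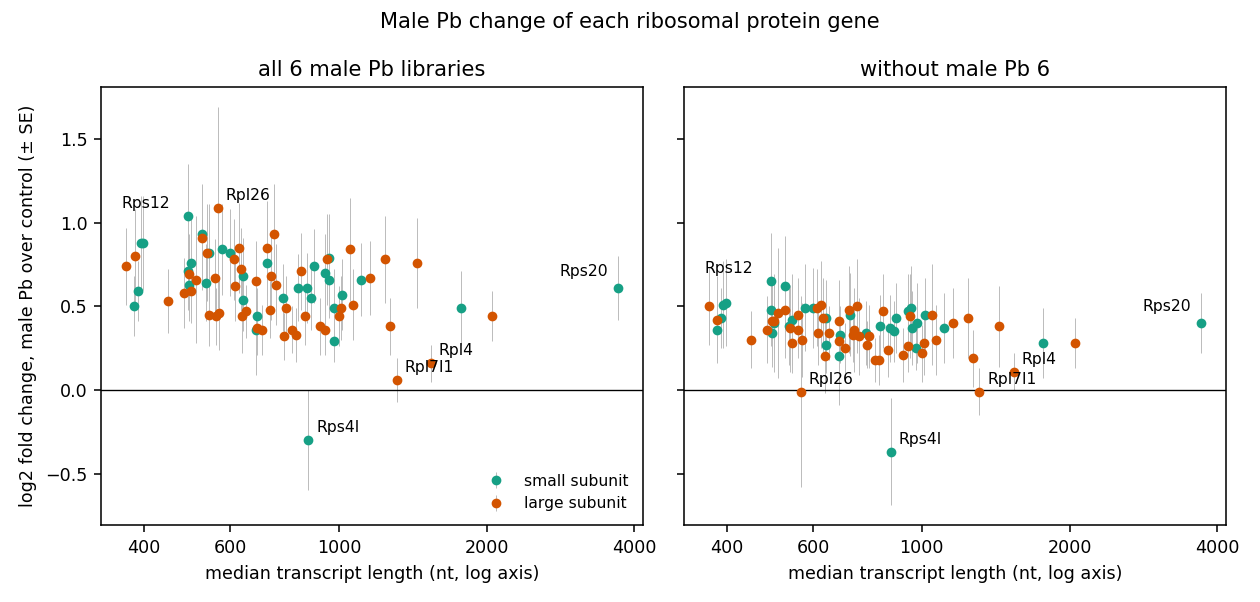
Log2 fold change of male Pb over control (± SE) for each of the 81 genes against median transcript length (nt, log axis), with all 6 male Pb libraries and without male Pb 6. Most points lie above 0 in both panels, Rpl26 drops to -0.01 without male Pb 6, and Rps4l lies below 0 in both.

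A few members did not follow the block. Rpl26 varied most between animals (SD 1.02 in log2 CPM within groups, against a median of 0.39 for the members). It lay between 27.1 and 58.1 CPM in 37 libraries and between 106 and 432 CPM in 11, with none between. The 11 were male control 3, male Mn 1, male Pb 6, male Pb+Mn 5, female controls 1 and 4, female Mn 6, female Pb 2, 4 and 6, and female Pb+Mn 5. Every group thus held at least 1 such animal. Rpl26 is a large-subunit protein, also known for binding p53 mRNA.

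Rpl35a ranged from 34.1 to 206 CPM (SD 0.67). In male Pb it ran from 42.6 to 199 CPM (median 124) and in male controls from 41.5 to 179 CPM (median 45.5), with a log2 fold change of 0.66 ± 0.38 (adjusted p = 0.45 by edgeR). Male control 4 stood near the top of both groups. Rps4l (SD 0.54) and Rpl17 (0.53) were the next most variable, and the least variable were Rpl4 (0.19), Rps4x (0.21), Rpl7l1 (0.23) and Rpl28 (0.24), with Rpl15 next at the same 2 decimals (0.24). The members least correlated with the rest were Rps4l (r = 0.33), Rps10 (0.43), Rpl30 (0.53) and Rpl35a (0.55), over 48 libraries with group means subtracted. At about 1 CPM, Rps10 has little depth behind that value.

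In the exposures other than Pb alone, no member had an unadjusted p under 0.05, and the members of smallest p and of extreme fold change were these. In male Mn they were Rps3a1 (0.26 ± 0.23) and Rpl24 (0.26 ± 0.27), Rps24 with the highest fold change (0.27 ± 0.30) and Rpl35a with the lowest (-0.37 ± 0.38). In female Mn they were Rpl21 (-0.27 ± 0.21) and Rps3a1 (0.28 ± 0.23), Rpl35a with the highest (0.45 ± 0.38) and Rpl26 with the lowest (-0.54 ± 0.60). Rpl35a was thus the lowest in male Mn and the highest in female Mn. In male Pb+Mn they were Rpl7l1 (-0.18 ± 0.13), Rps29 (0.21 ± 0.18) and Rpl21 (0.20 ± 0.21), Rps4l with the highest (0.40 ± 0.28) and Rpl22l1 with the lowest (-0.19 ± 0.29). In female Pb+Mn they were Rpl24 (-0.36 ± 0.27), Rpl29 (-0.20 ± 0.16) and Rplp2 (-0.16 ± 0.19), Rpl35a with the highest (0.32 ± 0.38) and Rpl26 with the lowest (-0.58 ± 0.60). The adjusted p of each was 1.0 by edgeR.

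Other genes moved in step with the family. Among 9374 named genes outside it with a mean of at least 10 CPM, the 6 most correlated with the member mean after subtraction of group means were Pfdn5 (r = 0.984), Eef1b2 (0.983), Cox4i1 (0.977), Eif3h (0.972), Rack1 (0.971) and Ndufb9 (0.969), over 48 libraries. Pfdn5 is a prefoldin subunit, Eef1b2 and Eif3h act in translation, Rack1 sits on the small subunit, and Cox4i1 and Ndufb9 belong to the respiratory chain. Eef1b2 was at 155 CPM ± 14.0 in male controls and 232 CPM ± 93.3 in male Pb (SD, n = 6), with 412 CPM in male Pb 6. Pfdn5 was at 579 CPM in male Pb 6 and 591 CPM in female Pb 2, against a mean of 142 CPM in male controls. As for the members, these r values include male Pb 6 and female Pb 2, which can raise them. Values without these 2 animals are not given here.

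The translation lists were mixed in male Pb, where 50.8% of all genes were above 0 and 8.28% were higher at an unadjusted p under 0.05. Of 17 elongation factor and TOP genes, 14 were higher (median log2 fold change 0.21), with 5 at an unadjusted p under 0.05, Eef1b2 (0.59 ± 0.19) and Tpt1 (0.58 ± 0.20) among them. Of 78 mitochondrial ribosomal protein genes, 72 were higher (median 0.29) and 29 at that level. Of 37 ribosomal pseudogenes tested, 35 were higher (median 0.69). The 21 initiation factors had a median of 0.02 with 12 higher, the 12 genes of TOP and mTOR control 0.02 with 6 higher, and the 28 ribosome biogenesis genes -0.12 with 7 higher. Nop58, which helps guide the modification of ribosomal RNA, was at -0.33 ± 0.10. None of the genes in these lists passed edgeR's adjusted test in male Pb.

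Markers of other kinds were summed in the same libraries, and their part in the results was not tested. Some stood apart in male Pb 6 and female Pb 2 and others did not. The 13 mitochondrially encoded genes summed to 33016 to 42331 CPM in male controls and 41548 to 74096 CPM in male Pb, where male Pb 1 was highest. Male Pb 6 (53838 CPM) and female Pb 2 (48100.4 CPM) lay inside the range of the other 46 libraries (26030.1 to 74096 CPM). The 25 nuclear-encoded respiratory chain genes summed to 12160.0 CPM in male Pb 6 and 10885 CPM in female Pb 2, against 3804 to 6862 CPM in the other 46 libraries. The 10 dentate granule cell markers summed to 419 CPM in male Pb 6 and 420.2 CPM in female Pb 2, below the other 46 (459.5 to 901 CPM), and 10 of 10 were lower in male Pb (median -0.41). The 7 blood markers, 5 of them tested, summed to 136 to 244 CPM in male controls, 235 to 722 CPM in male Pb and 645 CPM in female Pb 2. The highest blood sum was 831 CPM, in male Pb+Mn 1. The 8 oligodendrocyte markers summed to 15709 CPM in male Pb 1 and 16381 CPM in male Pb 3, against a median of 8497 CPM over the 46 libraries and 5829 to 14947 CPM in male controls, and 5 of 8 were higher in male Pb (median 0.11). Female Pb 2 was below the other 46 libraries for the 8 microglial markers (350.1 CPM, against 396 to 685) and the 8 endothelial markers (196 CPM, against 225 to 345), and above them for the 8 nuclear-retained RNAs (1907 CPM, against 256 to 1361). Male Pb 6 lay inside these 3 ranges. The astrocyte sum was highest of the 46 in male Pb 1 (11602 CPM, against a median of 8228), and male Pb 3 had 8615 CPM. Thalamus and habenula markers summed to 1974 CPM in male Pb 3 and 532 CPM in male Pb 1. Over the 46 libraries that sum ran from 411 to 2046 CPM (median 689). Male Pb 6 (387 CPM) lay below this range and female Pb 2 (478 CPM) inside it. The 10 hippocampal neuron markers summed to 11153 to 18678 CPM over the libraries other than male Pb 6 (14462 CPM) and female Pb 2 (12496 CPM).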

How the data were processed

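Hippocampal RNA of 48 mice was measured by stranded mRNA sequencing. The authors deposited 1 table of raw read counts per gene and library, not normalized. The submitters' processing notes name featureCounts 2.0.6, STAR 2.7.10b and Trim Galore 0.6.9, with the build GRCm39, and for later steps limma, edgeR and R 4.4.2. The counting options for reads matching several places or several genes are not given in the sources used here. If reads matching several places were discarded or split, genes with pseudogene copies have too few counts.

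Identifiers were matched to symbols by a reference table (51884 of 57126, with 99.52% of counts), and 131 identifiers shared a symbol. Transcript lengths are the medians of the GENCODE M21 annotation of each gene and had a value for 81 of 81 members and 98.4% of genes tested. Counts were tested in R 4.3.3 with edgeR 4.0.16 (TMM scaling, filterByExpr, quasi-likelihood fit over all 48 libraries with 1 term per group), and p-values were Benjamini-Hochberg adjusted over 16360 genes at a threshold of 0.05. CPM were computed with TMM library sizes, log2 CPM with a prior count of 2, and the share of counts from raw totals. The length trend used genes with a mean of at least 5 CPM. Group differences in it were tested by exact permutation over 924 arrangements, which allows no p below 0.00216. The fit recovered most of the largest changes put into simulated counts. Genes varied independently there, with no outlying animal and no length trend. The members here moved together in libraries that had both, so that check does not cover them.

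Sex and treatment labels set the groups. Alternatives were DESeq2 1.42.0, limma 3.58.1 (voom), no filter on low counts, scaling without the members, a replicate block, the length trend as covariate and each library left out. Replicates of a group differed beyond sampling noise (the smallest chi-square over its degrees of freedom was 8.9). Members named in the text were, per exposure, the 4 of smallest p and the highest and lowest fold change, the 5 highest and 5 lowest per kb, the 4 most and 4 least variable, the 4 least correlated, examples from short lists and those beside the CPM minimum. The members named for male Pb+Mn against Pb fall outside this rule and were chosen after their values were seen. One result on a single member is not reported here. Other genes named were the 6 most correlated with the members and up to 4 per list. The members and lists were chosen with earlier results of these data known.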

Additional observations from a re-analysis of the deposited data

Results flagged for a closer look

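In groups of 6 animals, the highest or lowest value was compared with its neighbour by Dixon's ratio at its 95% critical value. Chance alone flags about 1 in 20 groups, and 80 sets of 6 values were examined. The share of counts in the members stood out in male Pb 6 (3.99%), female Pb 2 (4.28%) and female control 1 (2.14%), and the length trend in female control 1 (-0.179). Male Pb 6 and female Pb 2 had been set apart in advance, so flags in these 2 animals, here and below, are no added evidence.

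Of the 8 genes examined, 7 had such a value. Rpl26 stood out in male control 3 (113.5 CPM), male Mn 1 (152.0), male Pb 6 (390.9), male Pb+Mn 5 (120.1), female Mn 6 (106.3) and female Pb+Mn 5 (115.0). Rps12 stood out in male Pb 6 (957 CPM), female Pb 2 (890.2) and male Mn 2 (334). Rpl22l1 stood out in male Pb 6 (143 CPM), female Pb 2 (116.0) and male Mn 2 (52.3). Rplp1 stood out in female Pb 2 (1292 CPM) and female control 1 (920.3). Rpl7l1 stood out in male Pb 6 (50.4 CPM) and female Pb 2 (57.6), Rpl35a in female Pb 2 (206 CPM), and Rpl4 on the low side in female Pb+Mn 3 (505 CPM). Rps4l had none.

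Over the 81 members, 72 were flagged in female Pb 2, 51 in male Pb 6 and 36 in female control 1. In male control 4 the count was 12. The share of all tested genes flagged in these libraries is not given here. The members also move together, so these counts are not separate observations and do not set the family apart from other genes.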

How the results depend on the processing

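The members' count of calls and their median log2 fold change were recomputed for the 16 comparisons, and the difference in length trend for 3. Of 722 such values, 715 kept their call or stayed within the spread between animals. In male Pb+Mn against Pb, the count of members called went from 0 to 4 with DESeq2, and over the fits that left out 1 library it ran from 0 to 49. With the length trend as covariate, the median went to -0.074 in that comparison and to -0.132 in the male Pb by Mn interaction. Over the fits that left out 1 library, the female Pb by Mn median (-0.405) ran from -0.58 to 0.001, its value without female Pb 2, and it was also 0.001 without both that animal and male Pb 6. The causes were not tested. A move smaller than the spread between animals can still change a sign, as in female Pb without female Pb 2 (-0.106).

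The labels do not say that equal replicate numbers mark shared litters or days. The correlations of same-numbered animals ran from -0.34 to 0.31 and in no comparison did all 6 exceed 0.1, so the numbers were not treated as pairs. In male Pb+Mn against Mn, 6 samples correlated best with their own number, and in female Mn against control 5 did. With a replicate block, the members called stayed at 0 in the 16 comparisons, and the male Pb median was 0.612.

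Depth limits Rps10 and Rpl24, at about 1 CPM, most. With 6 animals a group, exact tests of the length trend are coarse.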
